A study of Schmidtea mediterranea with 24 samples.

Results

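Solute carriers are membrane proteins that move small molecules and ions across the plasma membrane and the membranes of organelles. They are sorted into numbered subfamilies by sequence, and members of a subfamily often share a substrate class: SLC6 proteins take up amino acids and transmitters with sodium, SLC16 proteins carry monocarboxylates, SLC22 proteins move organic ions, SLC25 proteins sit in the inner mitochondrial membrane, SLC39 proteins bring in zinc and other metals, and SLC47 proteins export organic cations in exchange for protons. In planarians such genes are used by the gut, the excretory protonephridia and neurons, where uptake, excretion and signalling depend on transport.

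The 69 genes described here are those, of 16575 genes with values, whose best human protein match carries a symbol made of SLC and a digit. The symbols came from a pair of gene lists of the study, of which the first 1999 entries each were used. The list of the *fbl-1* arm opens with genes whose mRNA was mostly lower after *fbl-1* knockdown (KD), in no single order of size, followed by higher ones from the largest change down, and the list of the *fbl-2* arm is ordered by the p-value of the mRNA change after *fbl-2* KD. Measured values therefore chose the members: 34 stand only in the *fbl-1* list, 28 only in the *fbl-2* list and 7 in both. For this reason a member is tested only in the arm that did not choose it, and its values in the other arm are given as a description. The tested members of an arm are thus those absent from the used part of its own list. That part holds many genes with clear mRNA changes there, so counts and medians of tested members were shaped beforehand. Nothing is read from how they compare with all genes. The 69 genes carry 60 symbols of 32 subfamilies, since 9 symbols are shared by 18 gene models, and these are told apart by their identifiers. SLC6 has 7 members, SLC16 and SLC22 have 5 each, SLC2, SLC25, SLC39 and SLC47 have 4 each, SLC9, SLC13 and SLC18 have 3 each, and 17 subfamilies have a single member. By their names 3 members are no transporters: *SLC2A4RG*, a regulator of transcription, and a pair of *SLC9A3R1* genes, scaffold proteins that bind sodium/proton exchangers. All roles given below are those of the human proteins. Of the members, 15 are annotated in those lists to the intestine, 10 to cathepsin+ cells, 8 to protonephridia, 7 to neurons, 6 to the epidermis, 0 to neoblasts (the planarian stem cells), and 32 have no cell type.

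The libraries come from fragments of the asexual planarian *Schmidtea mediterranea*, strain CIW4, at 48 hours post amputation (hpa). Double-stranded RNA was fed to all animals, in 4 groups: *fbl-1* KD, set against *egfp* KD, and *fbl-2* KD, set against its own controls, *egfp* 2x KD. *fbl-1* and *fbl-2* encode fibrillarin homologs, the methyltransferase of ribosomal RNA, and *egfp* is a foreign sequence used as control RNAi. Animals with the knockdowns were fed 5 times, with 4x food for *fbl-1* KD and 2x food for *fbl-2* KD. Each group has 3 RNA-seq libraries (mRNA) and 3 Ribo-seq libraries (footprints of ribosomes), and each replicate pools 30 worms, so that every value averages over all cells of many animals. RNAi by feeding reaches the whole animal and is not limited to a cell type. The values are reads per gene multiplied by 1 factor per library, called scaled reads here. The mRNA libraries held 8.76 to 9.55 M and the footprint libraries 9.12 to 10.76 M scaled reads. Loss of the targeted mRNA was not seen in these values, so it gives no check of the labels, and knockdown measured by other assays was not analysed here. *fbl-1* mRNA lay between 753 and 1383 in the libraries labelled *fbl-1* KD, against 129 to 143 in *egfp* KD, and *fbl-2* mRNA between 481 and 982 in the libraries labelled *fbl-2* KD, against 127 to 144 in *egfp* 2x KD. Each targeted gene was thus higher where it was labelled as knocked down, and every direction below is that of the libraries as labelled.

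The members held a small and similar part of all scaled reads. Their sum was 0.241% to 0.280% of the mRNA total in the libraries labelled *fbl-1* KD, against 0.238% to 0.274% in *egfp* KD. It was 0.210% to 0.265% in those labelled *fbl-2* KD, against 0.249% to 0.272% in *egfp* 2x KD. For footprints the shares were 0.265% to 0.325% in the libraries labelled *fbl-1* KD, against 0.264% to 0.282% in *egfp* KD, and 0.234% to 0.238% in those labelled *fbl-2* KD, against 0.241% to 0.249% in *egfp* 2x KD. A gene was tested where it had at least 10 scaled reads in at least 3 libraries of a comparison. This left 57 of the 69 members in the *fbl-1* arm and 58 in the *fbl-2* arm. The 28 members of the *fbl-2* list alone all passed, while 23 of the 34 members of the *fbl-1* list alone passed for mRNA in the *fbl-2* arm. Changes are differences of log2(scaled reads + 1), fitted with limma over all genes, with p-values adjusted over all genes tested by the Benjamini-Hochberg method and a threshold of 0.05.

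**Figure D1:**
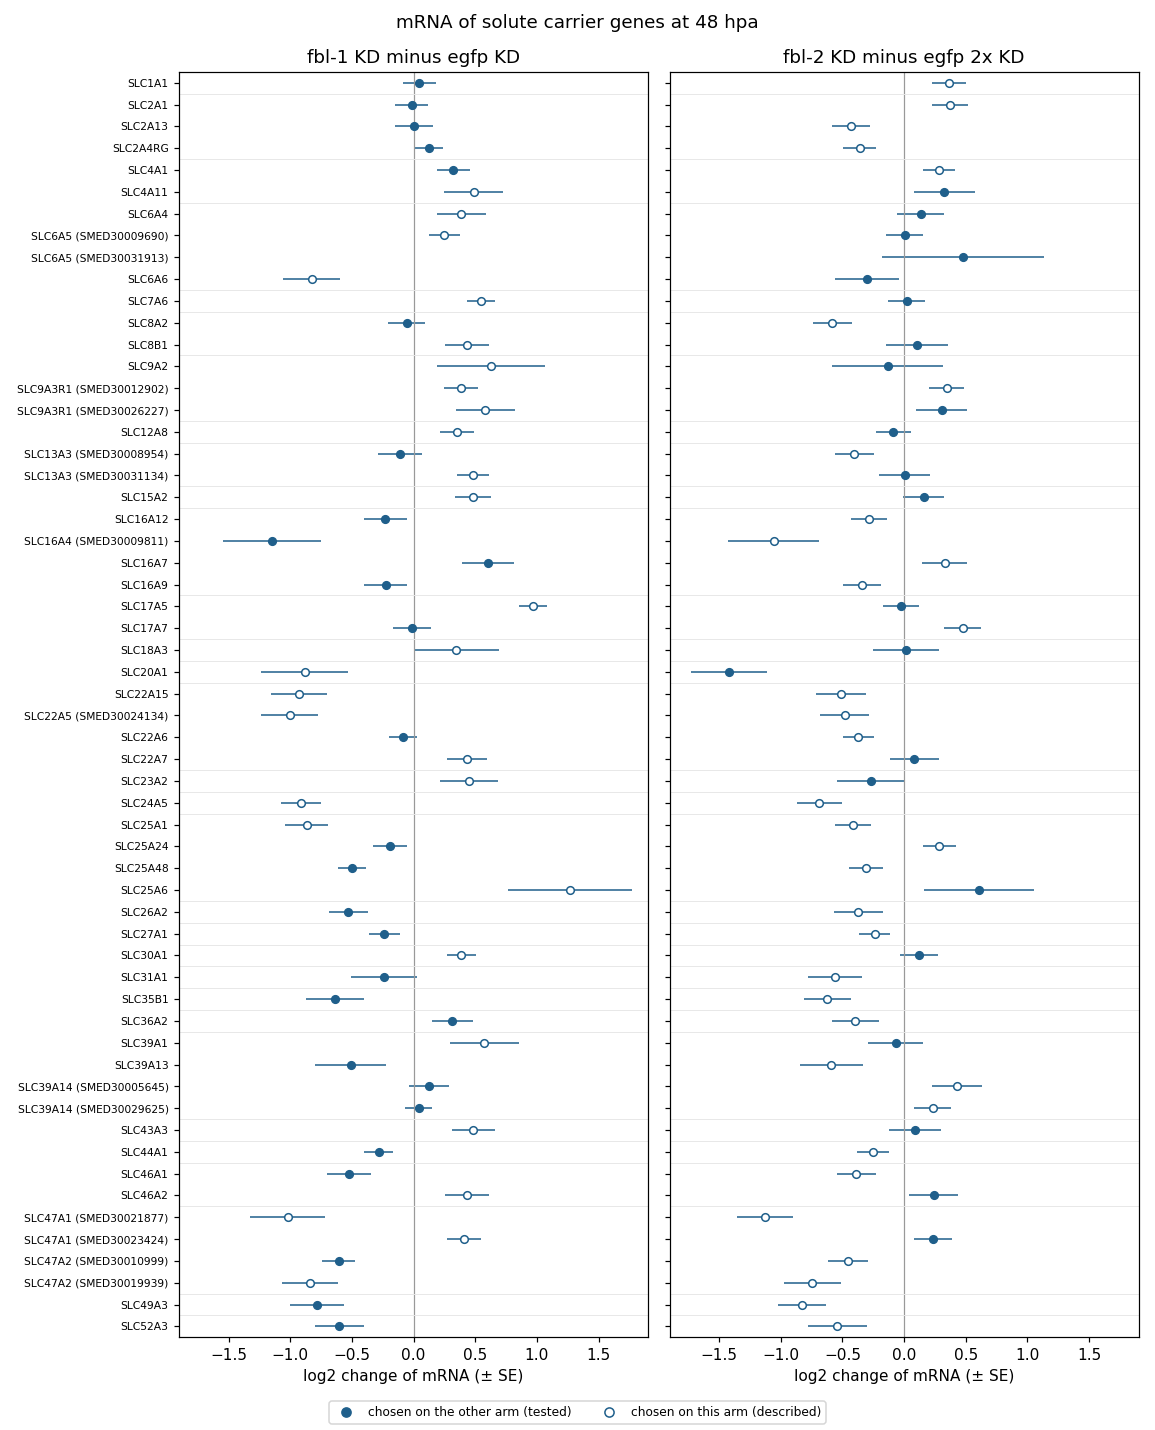
Log2 change of mRNA (± SE, 3 against 3 libraries) of each solute carrier gene that passed the filter, in order of subfamily, for *fbl-1* KD minus *egfp* KD (left) and *fbl-2* KD minus *egfp* 2x KD (right). Filled points are members chosen on the other arm, open points members chosen on the arm shown. Of the filled points on the left, 20 of 28 lie below 0.

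In the libraries labelled *fbl-1* KD, 3 solute carrier mRNAs fell and 0 rose among the 28 members chosen on the *fbl-2* arm. They were *SLC47A2* (SMED30010999), an exporter of organic cations, *SLC25A48*, a mitochondrial carrier linked to choline import in mammals, and *SLC49A3*. Over all 12965 genes tested in this comparison, 2.45% fell and 2.59% rose. The 28 members are those outside the used part of the *fbl-1* list, which holds higher mRNAs from the largest change down. The 22 members of that list alone that passed the filter had 20 higher and 2 lower mRNAs. The 0 that rose and the excess of negative changes below were thus shaped by the choice of members. Across the 28 members 20 had a negative and 8 a positive change, with a median log2 change of −0.21 beside −0.01 over all genes. This median ran from −0.27 to −0.12 when 1 library was left out, and it was −0.12 without *fbl-1* KD replicate 1 or *egfp* KD replicate 3 and −0.14 without *egfp* KD replicate 2. The groups did not overlap for 7 members on the lower and 2 on the higher side, where all genes gave 12.7% and 11.0%. At an unadjusted p under 0.05 stood 11 of the 28 members, beside 2637 of all 12965 genes. The 7 members named in both lists, taken up further below, are not in these counts. With them, 8 of 35 members of the *fbl-2* list were past the threshold as lower and 0 as higher, which is a description only, since the *fbl-1* arm chose those 7 too. In bulk libraries, fewer cells of a type and less RNA per cell cannot be told apart.

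*SLC47A2* (SMED30010999) mRNA had 357, 345 and 309 scaled reads in the libraries labelled *fbl-1* KD, against 457, 555 and 532 in *egfp* KD. All libraries labelled *fbl-1* KD lay below all controls, with a log2 change of −0.61 (SE 0.13, limma adjusted p = 0.0148). Its footprints were lower as well, at 259, 270 and 219 in the libraries labelled *fbl-1* KD against 334, 290 and 336 in *egfp* KD, without passing the test (log2 change −0.36, SE 0.19, limma adjusted p = 0.405). *SLC25A48* mRNA had 584, 600 and 573 scaled reads in the libraries labelled *fbl-1* KD, against 770, 827 and 889 in *egfp* KD, again with no overlap (log2 change −0.50, SE 0.11, limma adjusted p = 0.02). Its footprints overlapped, with 581, 371 and 454 in the libraries labelled *fbl-1* KD against 578, 533 and 502 in *egfp* KD (log2 change −0.22, limma adjusted p = 0.624). *SLC49A3* mRNA had 74, 75 and 80 scaled reads in the libraries labelled *fbl-1* KD, against 126, 104 and 176 in *egfp* KD. This was the largest of the 3 called changes and the least certain, with a log2 change of −0.78 (SE 0.22, limma adjusted p = 0.0482). Its footprints were level, at 145, 127 and 158 in the libraries labelled *fbl-1* KD against 172, 167 and 104 in *egfp* KD (log2 change −0.01, limma adjusted p = 0.985).

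The 3 calls depend on single libraries and on the fit. In limma without a mean trend none of them passed (adjusted p of 0.101, 0.114 and 0.131 for *SLC47A2*, *SLC25A48* and *SLC49A3*). Without replicate 3 of *egfp* KD none of the 3 passed the threshold (adjusted p of 0.0765 for *SLC47A2*, 0.109 for *SLC25A48* and 0.276 for *SLC49A3*), and the same held without replicate 3 of *fbl-1* KD (adjusted p of 0.102, 0.111 and 0.127), while all 3 stayed negative whichever library was left out. *SLC49A3* also missed the threshold without *egfp* KD replicate 1 (0.0734) or without *fbl-1* KD replicate 1 (0.143) or 2 (0.0829), and *SLC25A48* without *fbl-1* KD replicate 1 (0.0895).

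**Figure D2:**
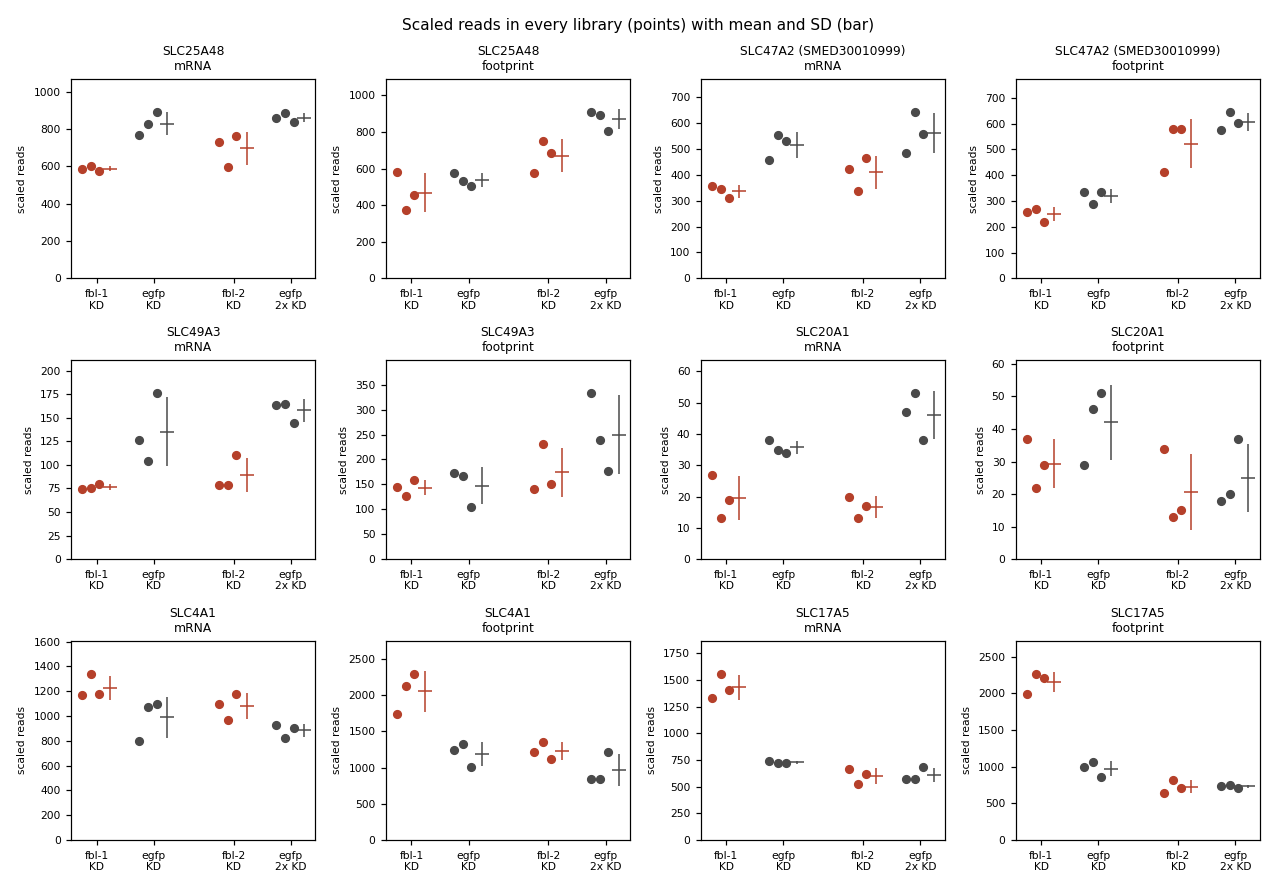
Scaled reads of 6 solute carrier genes in every library (points, left to right in the order of the deposited columns), with the mean and SD of each group beside them, for mRNA and footprints of *fbl-1* KD, *egfp* KD, *fbl-2* KD and *egfp* 2x KD. The 3 *fbl-1* KD points of *SLC25A48*, *SLC47A2* (SMED30010999) and *SLC49A3* mRNA lie below all *egfp* KD points, and *SLC20A1* mRNA lies below the controls in both arms.

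Several further members chosen on the *fbl-2* arm had lower mRNA without passing the test in the libraries labelled *fbl-1* KD. *SLC26A2*, a sulfate transporter, had 443, 407 and 520 scaled reads there, against 544, 842 and 616 in *egfp* KD (log2 change −0.53, limma adjusted p = 0.0654). *SLC52A3*, which takes up riboflavin, had 73, 98 and 83, against 127, 138 and 120 in *egfp* KD (log2 change −0.60, limma adjusted p = 0.0909). *SLC46A1*, the proton-coupled folate transporter, had 154, 132 and 189, against 189, 249 and 243 in *egfp* KD (log2 change −0.52, limma adjusted p = 0.109). The libraries of *SLC46A1* met at 189. The farthest from 0 was *SLC16A4* (SMED30009811), a monocarboxylate transporter of low abundance, with 12, 14 and 13 scaled reads in the libraries labelled *fbl-1* KD against 19, 44 and 32 in *egfp* KD (log2 change −1.15, SE 0.40, limma adjusted p = 0.112). On the other side stood *SLC16A7*, also a monocarboxylate transporter, with 111, 105 and 101 against 71, 82 and 57 in *egfp* KD (log2 change 0.60, SE 0.21, limma adjusted p = 0.119). The subfamily SLC16 thus held both the lowest and the highest change among the 28 tested members, while *SLC16A9* and *SLC16A12* both stood at −0.23.

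At the level of footprints 0 of the 28 members passed in the *fbl-1* arm (1 at an unadjusted p under 0.05), where 0.872% of all 12503 genes did (0.384% higher and 0.488% lower). Here too 20 members had a negative and 8 a positive change, with a median of −0.12 beside 0.02 over all genes (−0.15 to −0.07 when 1 library was left out). The groups were apart for 3 members on each side, where all genes gave 11.3% higher and 12.5% lower. The closest to the threshold was *SLC4A1*, the band 3 exchanger of chloride and bicarbonate, which is annotated to protonephridia. Its footprints were 1739, 2123 and 2290 in the libraries labelled *fbl-1* KD, against 1237, 1329 and 1002 in *egfp* KD (log2 change 0.79, SE 0.16, limma adjusted p = 0.0596). Its mRNA was 1167, 1338 and 1175 in the libraries labelled *fbl-1* KD, against 796, 1071 and 1098 in *egfp* KD (log2 change 0.32, SE 0.13, limma adjusted p = 0.18). Both assays placed all libraries labelled *fbl-1* KD above all controls. *SLC17A7*, which loads glutamate into synaptic vesicles, had footprints of 189, 210 and 313 in the libraries labelled *fbl-1* KD, against 159, 188 and 37 in *egfp* KD (log2 change 1.15, SE 0.53, limma adjusted p = 0.347), a change of 0.42 without the control of 37. *SLC1A1*, a glutamate transporter of the plasma membrane, had 307, 450 and 496 footprints there, against 452, 518 and 845 in *egfp* KD (log2 change −0.51, SE 0.27, limma adjusted p = 0.399, and −0.24 without the control of 845).

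Translational efficiency (TE, the change of footprints beyond that of mRNA) passed for 0 of the 28 members in the *fbl-1* arm, as for 0 of all 12243 genes (2 members and 608 genes at an unadjusted p under 0.05). The members' median TE change was 0.25 on the log2 scale, beside 0.01 over all genes, and it ran from 0.11, without the mRNA library of *fbl-1* KD replicate 1, to 0.33 when 1 library was left out. *SLC49A3*, with lower mRNA and level footprints, had a TE change of 0.77 (SE 0.36), and *SLC4A1* of 0.46 (SE 0.22). *SLC16A7*, with higher mRNA and footprints of 79, 43 and 43 in the libraries labelled *fbl-1* KD against 78, 55 and 71 in *egfp* KD, had −0.95 (SE 0.42). For all 3 the limma adjusted p was 0.877.

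In the libraries labelled *fbl-2* KD, 0 of the 23 tested members chosen on the *fbl-1* arm passed for mRNA, where 0.363% of all 12958 genes did (0.162% higher and 0.201% lower). These members stand outside the first 1999 entries of a list ordered by the p-value of this same change. A pass was thus unlikely beforehand, and the 0 is a description only. Of these members 16 had a positive and 7 a negative change, with a median of 0.08 beside 0.00 over all genes (−0.03 to 0.20 when 1 library was left out), and 1 stood at an unadjusted p under 0.05. The groups did not overlap for 1 member on the higher and 1 on the lower side, where all genes gave 7.08% and 7.91%. The member at an unadjusted p under 0.05 was *SLC20A1*, which brings phosphate into cells with sodium. Its mRNA had 20, 13 and 17 scaled reads in the libraries labelled *fbl-2* KD, against 47, 53 and 38 in *egfp* 2x KD (log2 change −1.42, SE 0.31, limma adjusted p = 0.101). The *fbl-1* arm, which chose it, also had low values, with 27, 13 and 19 in the libraries labelled *fbl-1* KD against 38, 35 and 34 in *egfp* KD (log2 change −0.88, SE 0.35). Its footprints overlapped in both arms, at 34, 13 and 15 in the libraries labelled *fbl-2* KD against 18, 20 and 37 in *egfp* 2x KD. All values of this gene were small, so that each group rests on few reads.

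The other tested members of the *fbl-2* arm lay closer to their controls. *SLC47A1* (SMED30023424) had 255, 229 and 282 scaled reads of mRNA in the libraries labelled *fbl-2* KD, against 221, 228 and 200 in *egfp* 2x KD (log2 change 0.24, limma adjusted p = 0.688). *SLC9A3R1* (SMED30026227) had 115, 96 and 97, against 101, 80 and 70 in *egfp* 2x KD (log2 change 0.30, limma adjusted p = 0.707). The first of these was just without overlap, the second overlapped. For footprints 0 of 23 members passed, where 3.12% of all 12612 genes did (1.17% higher and 1.96% lower), and 1 stood at an unadjusted p under 0.05. The groups were apart for 1 member on each side, where all genes gave 9.25% higher and 8.96% lower. The member at an unadjusted p under 0.05 was *SLC13A3* (SMED30031134), a transporter of dicarboxylates annotated to the intestine, with 2679, 2991 and 2713 footprints in the libraries labelled *fbl-2* KD against 2367, 2326 and 2354 in *egfp* 2x KD (log2 change 0.25, SE 0.10, limma adjusted p = 0.237). *SLC39A1*, a zinc importer, had 89, 127 and 81, against 50, 98 and 27 in *egfp* 2x KD (log2 change 0.91, SE 0.56, limma adjusted p = 0.516), a change of 0.47 without the control of 27 and of 1.38 without the control of 98. *SLC22A7*, an organic anion transporter, had 185, 94 and 200, against 132, 233 and 337 in *egfp* 2x KD (log2 change −0.52, SE 0.37, limma adjusted p = 0.602), a change of −0.18 without the *fbl-2* KD library of 94 and of −0.88 without the control of 132. Both overlapped their controls. No TE change passed among the 23 members (0 also at an unadjusted p under 0.05) or over all 12364 genes (0 passed, 712 at an unadjusted p under 0.05). The members' TE changes ran from −0.94 for *SLC9A3R1* (SMED30026227) to 1.10 for *SLC20A1*, with 0.98 for *SLC39A1* and −0.35 for *SLC15A2*.

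The plot of both arms sets the mRNA changes of each member side by side. The arms share no libraries, so the directions are separate measurements, but along the axis of the arm that chose a member its place was fixed by the choice. Of the 57 members that passed the filter in both arms, 46 (80.7%) had the same direction of mRNA change, 21 higher and 25 lower, and over all 12828 genes the share was 66.3%. For footprints 38 of 57 members (66.7%) shared the direction, beside 61.5% of all genes. Nothing is read from these differences, since every member was chosen on its change in at least 1 arm. By list, 17 of 22 members of the *fbl-1* list alone, 22 of 28 of the *fbl-2* list alone and 7 of 7 named in both shared it for mRNA. The members of the *fbl-1* list alone were mostly higher in both arms (15 of 17 shared directions), those of the *fbl-2* list alone mostly lower (17 of 22).

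**Figure D3:**
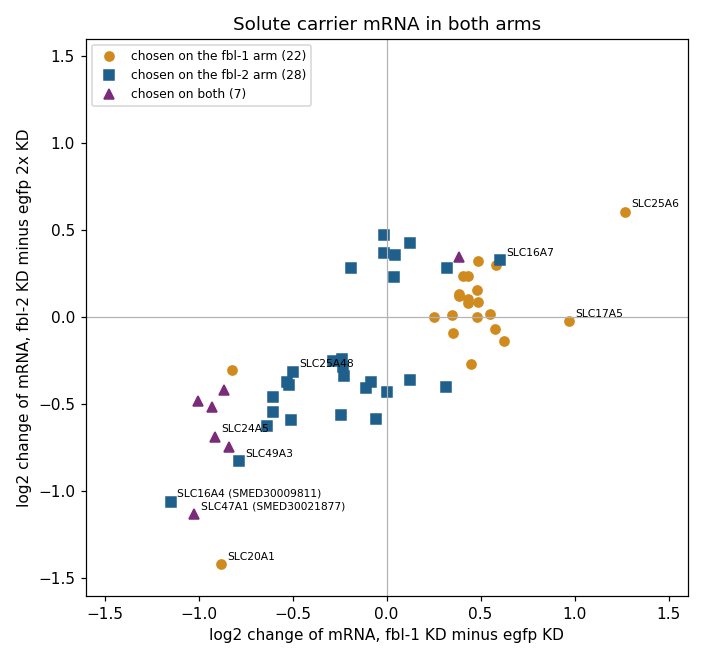
Log2 change of mRNA in the *fbl-1* arm (horizontal) and in the *fbl-2* arm (vertical) of the 57 members that passed the filter in both, marked by the arm that chose them. Of the points, 25 lie below 0 on both axes and 21 above 0 on both, and *SLC17A5* lies at 0.97 in the *fbl-1* arm and −0.02 in the *fbl-2* arm.

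The SLC47 genes, exporters of organic cations, had a median mRNA change of −0.72 in the *fbl-1* arm and −0.60 in the *fbl-2* arm, a description only, since each arm had chosen 3 of the 4 genes. The same 3 of the 4 genes were lower in both arms and the same gene higher. *SLC47A1* (SMED30021877), named in both lists and so given without a test, had 21, 42 and 38 scaled reads of mRNA in the libraries labelled *fbl-1* KD, against 81, 57 and 64 in *egfp* KD (log2 change −1.02). It had 34, 35 and 45 in the libraries labelled *fbl-2* KD, against 85, 83 and 83 in *egfp* 2x KD (log2 change −1.13). Its footprints were lower too, at 2, 32 and 31 in the libraries labelled *fbl-1* KD against 69, 52 and 33 in *egfp* KD, and at 29, 34 and 18 in the libraries labelled *fbl-2* KD against 48, 125 and 82 in *egfp* 2x KD. In none of these 4 comparisons did the groups overlap.

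*SLC47A2* (SMED30019939), annotated to the intestine and also named in both lists, had 55, 44 and 60 scaled reads of mRNA in the libraries labelled *fbl-1* KD, against 95, 108 and 83 in *egfp* KD (log2 change −0.84). It had 78, 72 and 63 in the libraries labelled *fbl-2* KD, against 130, 86 and 151 in *egfp* 2x KD (log2 change −0.74). Its footprints in the *fbl-2* arm stood further apart, at 72, 132 and 104 in the libraries labelled *fbl-2* KD against 268, 289 and 165 in *egfp* 2x KD (log2 change −1.22). *SLC47A2* (SMED30010999), described above for the *fbl-1* arm, had 424, 339 and 465 scaled reads of mRNA in the libraries labelled *fbl-2* KD, which chose it, against 485, 641 and 556 in *egfp* 2x KD (log2 change −0.46). *SLC47A1* (SMED30023424) went the other way, with 306, 288 and 327 in the libraries labelled *fbl-1* KD against 243, 220 and 231 in *egfp* KD (log2 change 0.41). The summed mRNA of the 4 genes was 739, 719 and 734 in the libraries labelled *fbl-1* KD, against 876, 940 and 910 in *egfp* KD, and 791, 675 and 855 in those labelled *fbl-2* KD, against 921, 1038 and 990 in *egfp* 2x KD. The *SLC47A1* genes share a symbol, as do the *SLC47A2* genes, and how reads were divided between similar gene models was not tested.

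**Figure D4:**
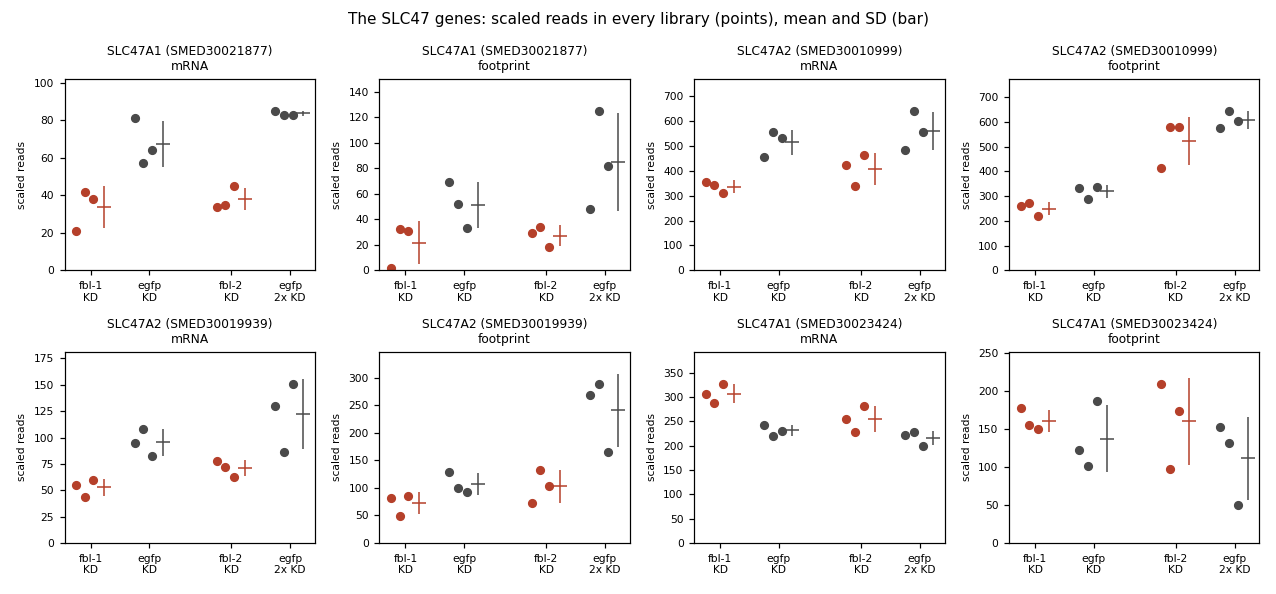
Scaled reads of the 4 SLC47 genes in every library (points, in the order of the deposited columns), with the mean and SD of each group beside them, for mRNA and footprints. For SMED30021877 all knockdown points lie below the controls of their arm in both assays, and for SMED30023424 the mRNA points of both knockdowns lie above them.

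SLC22 proteins, which carry organic anions, cations and carnitine, had 4 of 5 members past the filter, with a median mRNA change of −0.51 in the *fbl-1* arm and −0.43 in the *fbl-2* arm. These medians are a description only, since each arm had chosen most of the genes. *SLC22A5* (SMED30024134), a carnitine transporter, had 65, 135 and 89 scaled reads in the libraries labelled *fbl-1* KD, against 169, 181 and 210 in *egfp* KD (log2 change −1.005), and 160, 116 and 176 in those labelled *fbl-2* KD, against 195, 248 and 185 in *egfp* 2x KD (log2 change −0.48). *SLC22A15*, annotated to the epidermis, had 42, 44 and 53 in the libraries labelled *fbl-1* KD, against 89, 85 and 92 in *egfp* KD (log2 change −0.93), and 55, 69 and 70 in those labelled *fbl-2* KD, against 96, 94 and 87 in *egfp* 2x KD (log2 change −0.51). Both genes are named in both lists and kept the groups apart in each arm. *SLC22A6*, an exchanger of organic anions annotated to the intestine, had level mRNA in the *fbl-1* arm, where it can be tested (1210, 1408 and 1345 in the libraries labelled *fbl-1* KD against 1366, 1343 and 1491 in *egfp* KD, log2 change −0.09, limma adjusted p = 0.718). In the *fbl-2* arm, which chose it, its footprints were 2079, 2225 and 2102 in the libraries labelled *fbl-2* KD, against 3377, 2834 and 2726 in *egfp* 2x KD (log2 change −0.47). *SLC22A7*, chosen on the *fbl-1* arm for a higher value there (195, 213 and 183 in the libraries labelled *fbl-1* KD against 136, 153 and 148 in *egfp* KD), overlapped in the *fbl-2* arm (205, 139 and 228 in the libraries labelled *fbl-2* KD against 184, 189 and 157 in *egfp* 2x KD, log2 change 0.08, limma adjusted p = 0.929). The summed SLC22 mRNA was 1512, 1801 and 1674 in the libraries labelled *fbl-1* KD, against 1761, 1762 and 1942 in *egfp* KD. For *fbl-2* KD it was 1846, 1550 and 1841 in the libraries labelled *fbl-2* KD, against 2102, 2356 and 2162 in *egfp* 2x KD.

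Of the mitochondrial SLC25 carriers, *SLC25A1*, *SLC25A24* and *SLC25A48* (log2 change −0.50) had lower mRNA in the libraries labelled *fbl-1* KD. Only *SLC25A6*, on few reads, was higher. *SLC25A1*, which exports citrate from mitochondria and is named in both lists, had 174, 242 and 251 scaled reads of mRNA in the libraries labelled *fbl-1* KD, against 366, 358 and 492 in *egfp* KD (log2 change −0.87), and 309, 279 and 257 in those labelled *fbl-2* KD, against 362, 419 and 348 in *egfp* 2x KD (log2 change −0.42). Its footprints were 291, 257 and 267 in the libraries labelled *fbl-1* KD, against 406, 462 and 431 in *egfp* KD, and they overlapped in the *fbl-2* arm (208, 469 and 229 in the libraries labelled *fbl-2* KD against 310, 257 and 276 in *egfp* 2x KD). *SLC25A6*, an exchanger of ADP and ATP, was the highest member of the *fbl-1* arm, at 26, 13 and 19 in the libraries labelled *fbl-1* KD against 8, 4 and 11 in *egfp* KD (log2 change 1.27, SE 0.50), on few reads. It passed the filter there only through the libraries where it was high, and that arm had chosen it. Its rank is thus a description only. The libraries labelled *fbl-2* KD had 22, 27 and 15, against 8, 24 and 12 in *egfp* 2x KD (log2 change 0.61, SE 0.44, limma adjusted p = 0.732). *SLC25A24*, a calcium-binding carrier, had −0.19 in the *fbl-1* arm (limma adjusted p = 0.459). Summed over the 4 genes, SLC25 mRNA was 1134, 1188 and 1250 in the libraries labelled *fbl-1* KD, against 1546, 1575 and 1848 in *egfp* KD.

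*SLC17A5*, placed among the carriers of amino acids and transmitters, had high values in one arm only. It encodes sialin, which lets sialic acid out of lysosomes, and is annotated to protonephridia and cathepsin+ cells. In the arm that chose it, its mRNA was 1329, 1555 and 1404 in the libraries labelled *fbl-1* KD, against 742, 723 and 720 in *egfp* KD (log2 change 0.97, SE 0.11), and its footprints 1997, 2262 and 2208, against 994, 1062 and 861 in *egfp* KD (log2 change 1.15, SE 0.14). Its mRNA in the *fbl-2* arm was 662, 521 and 621 in the libraries labelled *fbl-2* KD, against 575, 569 and 687 in *egfp* 2x KD (log2 change −0.02, SE 0.15, limma adjusted p = 0.977), and its footprints 644, 822 and 711, against 734, 753 and 709 (log2 change −0.02, SE 0.16, limma adjusted p = 0.976). The difference between the arms was not tested, since the *fbl-1* arm chose the gene. *SLC7A6*, an exchanger of basic and neutral amino acids, had 1364, 1545 and 1304 scaled reads of mRNA in the libraries labelled *fbl-1* KD, against 1038, 947 and 895 in *egfp* KD, and its log2 change in the *fbl-2* arm was 0.02 (SE 0.15, limma adjusted p = 0.978).

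Of the 7 SLC6 genes, 4 had values too low for the *fbl-1* arm. *SLC6A6*, the taurine transporter, had 55, 53 and 67 scaled reads of mRNA in the libraries labelled *fbl-1* KD, against 102, 83 and 131 in *egfp* KD (log2 change −0.82). Its footprints were lower as well (41, 86 and 76 in *fbl-1* KD against 102, 146 and 160 in *egfp* KD). The libraries labelled *fbl-2* KD had 73, 47 and 97, against 89, 84 and 84 in *egfp* 2x KD (log2 change −0.30, limma adjusted p = 0.779). *SLC6A4*, the serotonin transporter, had 256, 301 and 209 in the libraries labelled *fbl-1* KD, against 139, 234 and 221 in *egfp* KD, and a log2 change of 0.13 in the *fbl-2* arm (limma adjusted p = 0.876). The *SLC6A5* genes, glycine transporters by name, stood at 0.00 (SMED30009690) and 0.48 (SMED30031913, with 18, 9 and 12 scaled reads in the libraries labelled *fbl-2* KD against 2, 17 and 16 in *egfp* 2x KD) in the *fbl-2* arm, without passing. By SLC number alone, 17 members were grouped as amino acid and transmitter carriers, whatever the substrate of the single protein. This group had 10 members past the filter in the *fbl-1* arm, 8 of them higher, and 11 in the *fbl-2* arm, with a median of 0.02. In the *fbl-1* arm 6254 of all 12965 genes were higher. The count of 8 is a description only, since that arm had chosen most members of the group.

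Among the ion carriers, *SLC24A5* and *SLC8A2* exchange calcium for sodium. *SLC24A5*, annotated to the intestine and named in both lists, had 212, 197 and 155 scaled reads of mRNA in the libraries labelled *fbl-1* KD, against 407, 317 and 338 in *egfp* KD (log2 change −0.91), and 228, 183 and 295 in those labelled *fbl-2* KD, against 372, 398 and 349 in *egfp* 2x KD (log2 change −0.69). *SLC8A2*, also annotated to the intestine, was tested in the *fbl-1* arm, where it had 676, 963 and 786 in the libraries labelled *fbl-1* KD against 715, 807 and 998 in *egfp* KD (log2 change −0.06, limma adjusted p = 0.873). In the *fbl-2* arm, which chose it, it had 488, 430 and 636 in the libraries labelled *fbl-2* KD, against 724, 825 and 751 in *egfp* 2x KD (log2 change −0.58). *SLC12A8*, the last solute carrier within the used part of the *fbl-1* list (entry 1910), had 427, 353 and 370 in the libraries labelled *fbl-1* KD, against 296, 318 and 284 in *egfp* KD (log2 change 0.35), and *SLC6A4*, the member before it (entry 1844), had 0.39. In the *fbl-2* list the last members were *SLC16A7* (entry 1949, log2 change 0.33 in the *fbl-2* arm) and *SLC39A14* (SMED30029625, entry 1939, 0.23). Solute carriers beyond these entries were not analysed here.

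The metal carriers of SLC39 split by gene. *SLC39A13* had 54, 61 and 29 scaled reads of mRNA in the libraries labelled *fbl-1* KD, against 71, 66 and 60 in *egfp* KD (log2 change −0.51, limma adjusted p = 0.341), and 37, 42 and 30 in those labelled *fbl-2* KD, against 61, 47 and 57 in *egfp* 2x KD (log2 change −0.59). *SLC39A14* (SMED30005645) had 306, 234 and 282 in the libraries labelled *fbl-1* KD, against 225, 299 and 232 in *egfp* KD (log2 change 0.12, limma adjusted p = 0.716), and 263, 352 and 218 in those labelled *fbl-2* KD, against 194, 172 and 248 in *egfp* 2x KD (log2 change 0.43). *SLC39A1*, chosen on the *fbl-1* arm, had 65, 63 and 64 in the libraries labelled *fbl-1* KD, against 35, 34 and 65 in *egfp* KD (log2 change 0.57), and a log2 change of −0.07 in the *fbl-2* arm (limma adjusted p = 0.948). *SLC31A1*, which takes up copper, had −0.24 in the *fbl-1* arm (limma adjusted p = 0.661), and *SLC30A1*, which exports zinc, 0.12 in the *fbl-2* arm (limma adjusted p = 0.862).

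In SLC2, the sugar carriers *SLC2A1* (a glucose transporter) and *SLC2A13* (a transporter of myo-inositol) were level in the *fbl-1* arm, with log2 changes of −0.01 and 0.00 (limma adjusted p of 0.965 and 0.995). In the *fbl-2* arm, which chose them, they stood on opposite sides. *SLC2A1* had 572, 493 and 634 scaled reads of mRNA in the libraries labelled *fbl-2* KD, against 455, 407 and 445 in *egfp* 2x KD, and *SLC2A13* had 147, 169 and 178, against 218, 222 and 225 in *egfp* 2x KD. Their footprints kept these directions without overlap, with log2 changes of 0.55 for *SLC2A1* and −0.63 for *SLC2A13*. Of the members not named so far, *SLC35B1* had the lowest tested change (log2 change −0.64 in the *fbl-1* arm, limma adjusted p = 0.137). *SLC44A1*, which takes up choline, *SLC27A1*, a fatty acid transporter, and *SLC36A2*, an amino acid transporter, had −0.28, −0.24 and 0.31 there. In the *fbl-2* arm *SLC4A11*, *SLC8B1*, *SLC23A2* (a vitamin C transporter), *SLC43A3* and *SLC46A2* had between −0.27 and 0.33, and none of these 9 passed. *SLC2A4RG*, no transporter, had 655, 763 and 676 in the libraries labelled *fbl-1* KD, against 619, 614 and 689 in *egfp* KD (log2 change 0.12, limma adjusted p = 0.611), and 495, 546 and 476 in those labelled *fbl-2* KD, against 635, 601 and 714 in *egfp* 2x KD.

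Other carboxylate carriers included the *SLC13A3* genes. SMED30031134, chosen on the *fbl-1* arm, had 2307, 3193 and 2440 scaled reads of mRNA in the libraries labelled *fbl-1* KD, against 1729, 1940 and 1971 in *egfp* KD, and footprints of 3674, 5391 and 5319, against 2674, 2928 and 2352 in *egfp* KD (log2 change 0.84). Its mRNA was level in the *fbl-2* arm (2479, 1676 and 3072 in the libraries labelled *fbl-2* KD against 2136, 2834 and 2094 in *egfp* 2x KD, log2 change 0.00, limma adjusted p = 0.997). SMED30008954 was level in the *fbl-1* arm (251, 319 and 276 in the libraries labelled *fbl-1* KD against 225, 328 and 376 in *egfp* KD, log2 change −0.11, limma adjusted p = 0.781) and had 255, 211 and 279 in the libraries labelled *fbl-2* KD, against 318, 358 and 307 in *egfp* 2x KD. In the arm that chose it, *SLC16A4* (SMED30009811) had 17, 13 and 9 in the libraries labelled *fbl-2* KD, against 34, 25 and 24 in *egfp* 2x KD (log2 change −1.06), and *SLC49A3* had 79, 79 and 110, against 164, 165 and 144 in *egfp* 2x KD (log2 change −0.83). *SLC25A48* had 731, 597 and 764 there, against 860, 884 and 838 in *egfp* 2x KD (log2 change −0.31). All 3 had also been lower in the *fbl-1* arm.

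*SLC9A3R1* (SMED30012902) was the only one of the 7 members named in both lists with higher mRNA, at 412, 456 and 397 scaled reads in the libraries labelled *fbl-1* KD against 337, 277 and 360 in *egfp* KD (log2 change 0.38), and 365, 354 and 402 in those labelled *fbl-2* KD against 269, 298 and 315 in *egfp* 2x KD (log2 change 0.35). The other 6 were lower in mRNA in both arms. The fitted footprint change of SMED30012902 was negative in the *fbl-1* arm and positive in the *fbl-2* arm. The second *SLC9A3R1* gene (SMED30026227) had 118, 93 and 150 in the libraries labelled *fbl-1* KD, against 96, 84 and 60 in *egfp* KD. *SLC9A2*, a sodium/proton exchanger, had 20, 23 and 15 in the libraries labelled *fbl-1* KD, against 9, 19 and 10 in *egfp* KD, and −0.13 as a log2 change in the *fbl-2* arm (limma adjusted p = 0.95).

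In the arm that chose them, 29 members of the *fbl-1* list passed the filter, 3 of them over the threshold as higher (*SLC17A5*, *SLC7A6* and *SLC13A3* SMED30031134) and 5 as lower (*SLC24A5*, *SLC25A1*, *SLC22A5* SMED30024134, *SLC22A15* and *SLC47A2* SMED30019939), where 5.04% of all genes passed. For footprints 1 passed there, *SLC17A5*, where 0.872% of all genes did. Of the 35 members of the *fbl-2* list in their own arm, 0 passed for mRNA (26 at an unadjusted p under 0.05), beside 0.363% of all genes. For footprints 1 of the 35 passed, *SLC22A6*, beside 3.12% of all genes. The *fbl-2* list is ordered by the p-value of the mRNA change in that arm, so the 26 were shaped beforehand. Nothing is read from these counts, since the same values chose the genes.

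Of the members, 11 had too few reads for a test of mRNA in either arm, and all 11 came from the *fbl-1* list alone: *SLC1A3*, *SLC2A3*, *SLC6A14*, both *SLC6A7* genes, *SLC13A5*, *SLC16A4* (SMED30018431), *SLC18A1*, *SLC18A2*, *SLC22A5* (SMED30032171) and *SLC37A4*. Their highest value in any mRNA library was 19 scaled reads, and in any footprint library 43. *SLC18A2*, the vesicular amine transporter, for example had 0, 0 and 5 scaled reads of mRNA in the libraries labelled *fbl-1* KD against 4, 4 and 4 in *egfp* KD. The SLC6 and SLC18 subfamilies of transmitter carriers lost 3 of 7 and 2 of 3 members to this filter in both arms. *SLC18A3*, the vesicular transporter of acetylcholine, remained, with a log2 change of 0.02 in the *fbl-2* arm (limma adjusted p = 0.991).

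In the controls, the members were spread around the median gene in footprints relative to mRNA, as the plot of control ratios shows. Given as log2 of footprints over mRNA less the median over all genes, the median of 57 members was 0.15 in *egfp* KD and that of 58 members 0.09 in *egfp* 2x KD. Of 57 members in both sets of controls, 25 (43.9%) lay above the median gene in both, where 35.8% of all 12074 genes did, and 13 lay below in both. *SLC13A3* (SMED30008954) was high in both sets (0.97 ± 0.52 in *egfp* KD and 0.70 ± 0.41 in *egfp* 2x KD, SD, n = 3 libraries of each assay), and *SLC47A1* (SMED30023424) low in both (−0.73 ± 0.45 and −1.01 ± 0.87). The sets did not place every gene alike. *SLC26A2* had −2.12 ± 0.53 in *egfp* KD and −0.05 ± 0.33 in *egfp* 2x KD, and *SLC39A1* had 1.69 ± 0.54 in *egfp* KD and −0.09 ± 0.93 in *egfp* 2x KD.

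**Figure D5:**
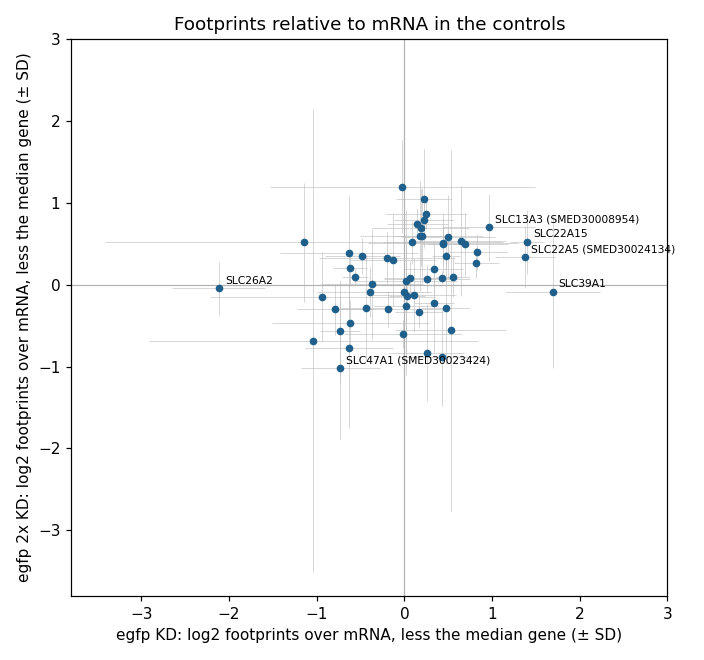
Log2 of footprints over mRNA less the median gene (± SD) of 57 solute carrier genes in the *egfp* KD controls (horizontal) and the *egfp* 2x KD controls (vertical). Points in the upper right (25 genes) have more footprints per mRNA than the median gene in both, and *SLC26A2* and *SLC39A1* stand far from 0 in *egfp* KD only.

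Markers of other cells moved in the same libraries. Of 3 neoblast markers, *piwi-1* (log2 change −0.70, limma adjusted p = 0.00604) and *MCM2* fell in mRNA after *fbl-1* KD. The summed level of the 3 was 11938 to 12837 in the libraries so labelled, against 17823 to 19215 in *egfp* KD. In the *fbl-2* arm the sum was 14797 to 16936 in the libraries labelled *fbl-2* KD, against 17534 to 18275 in *egfp* 2x KD, with 0 of 3 called. Of 54 other genes annotated to the intestine alone and named only in the *fbl-2* list, 15 fell and 0 rose in the *fbl-1* arm, with a median log2 change of −0.38. Over all genes 2.45% fell and 2.59% rose. The cell type lists of this arm leave out genes in the used part of the *fbl-1* list, higher ones among them, which shaped how many could rise. The summed mRNA of these 54 genes was 145055 to 163521 in the libraries labelled *fbl-1* KD, against 142613 to 165948 in *egfp* KD. Among the 28 tested solute carriers, the 9 annotated to the intestine had a median of −0.09 with 1 that fell (*SLC47A2* SMED30010999), and the 19 others a median of −0.23 with 2 that fell. Of 83 genes annotated to neurons alone 3 fell. Of 62 annotated to cathepsin+ cells 7 fell and 1 rose, where 2.45% of all genes fell and 2.59% rose. The summed mRNA of the 83 genes was 41659 to 42067 in the libraries labelled *fbl-1* KD, against 45727 to 46114 in *egfp* KD. That of the 62 genes was 52872 to 56588, against 57873 to 63784 in *egfp* KD. Neither pair overlapped, while the mRNA sums of the list annotated to protonephridia did. Of 13 annotated to protonephridia 0 changed (3 at an unadjusted p under 0.05, beside 2637 of all 12965 genes). Of 5 markers of the epidermal lineage, *prog-1* fell and *egr-5* rose. The neoblast marker *vasa-1* fell in footprints (log2 change −0.70, limma adjusted p = 0.0366). Summed footprints of the *fbl-1* arm were lower without overlap for the neuron list and higher for the protonephridia list. Those of the intestine and cathepsin+ lists overlapped. In the *fbl-2* arm 0 of the 5 epidermal markers passed for mRNA, while in footprints *egr-5* rose (log2 change 0.83, limma adjusted p = 0.00565) and *zpuf-4* fell (log2 change −0.94, limma adjusted p = 0.0391). Of 41 genes annotated to cathepsin+ cells alone and named only in the *fbl-1* list, the summed mRNA was 17635 to 19408 in the libraries labelled *fbl-2* KD, against 16479 to 16546 in *egfp* 2x KD. Of 109 such genes annotated to neurons, the summed footprints were 73129 to 79585 in the libraries labelled *fbl-2* KD, against 67724 to 70155 in *egfp* 2x KD. Neither pair of groups overlapped, and 1 gene of each list rose, where 0.162% of all genes rose in mRNA and 1.17% in footprints. The summed mRNA of the 109 genes overlapped, at 30369 to 52702 against 27599 to 41903 in *egfp* 2x KD. Footprints of the 41 genes were apart, at 16261 to 16534 against 15329 to 16208. The intestine and protonephridia lists of this arm overlapped in both assays. These lists leave out genes in the used part of the *fbl-2* list and were thus shaped by the choice too. In the *fbl-1* arm 2.45% of all genes fell and 2.59% rose. Among 14 transporter genes of other families tested there and named only in the *fbl-2* list, 3 fell and 0 rose, with a median of −0.25. The part of any of these in the changes of solute carriers was not tested.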

How the data were processed

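Asexual *S. mediterranea* were analysed by RNA-seq and Ribo-seq, with 3 libraries per group and assay in 4 groups (24 libraries). According to the methods, reads were trimmed with Cutadapt and Sickle, aligned with Tophat2 and counted per gene with featureCounts. The 4 tables deposited by the authors hold signal values: whole numbers that are reads per gene multiplied by 1 factor per library, since in 9 of the 24 libraries some whole number under 30 is held by no gene. The values are not counts, so no count model was used. The read depth behind each value is known only up to that factor. All columns of values were used. Footprint columns were mapped to groups. According to the methods each worm sample was divided between RNA-seq and Ribo-seq, but the TE fit treats the libraries as unpaired, and fits with the number that ends a column name as a block were added after the data were seen. Genes with at least 10 in at least 3 libraries (for TE, in each assay) were tested with limma 3.58.1 in R 4.3.3, with a mean trend, on log2(value + 1), 3 libraries against 3. TE is the interaction of knockdown and assay over the 12 libraries of an arm. P-values measure the spread between pools of worms. With 3 against 3 an exact permutation test cannot go below 0.1. The fit was tested on simulated data.

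Members and lists were chosen with earlier results of these data known. Symbols are best human protein matches, 2 gene models (SMED30001068 and SMED30000707) were left out by the rule for members, and the SLCO genes and *slc49a4* were counted with the transporters of other families. Values by library are given for members past the threshold in an arm that did not choose them, for members whose groups are apart with a log2 change of 0.8 or more in size and a higher group averaging 20 or more, for the highest and lowest member of each subfamily of at least 3, for the genes that are no transporters, for the 3 tested members with the smallest p, and for the last members within each list. Others were added as examples after their values were seen. Alternatives were another pseudocount, no filter, other scalings, limma without a trend, a replicate block and leaving out each library. No genome or protein sequences were used.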

Additional observations from a re-analysis of the deposited data

Results flagged for a closer look

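*SLC8A2*, an exchanger of sodium and calcium, had footprints on opposite sides of the controls in the arms. It was picked by a search of all members for this pattern, and nothing is read from it. Over all genes, footprints were higher without overlap for 11.3% in the *fbl-1* arm and lower without overlap for 8.96% in the *fbl-2* arm. All 3 libraries labelled *fbl-1* KD (890, 991 and 950 scaled reads) lay above all *egfp* KD controls (860, 872 and 676), with a log2 change of 0.241, while all 3 libraries labelled *fbl-2* KD (510, 490 and 542) lay below all *egfp* 2x KD controls (680, 713 and 642), with a log2 change of −0.399. Neither change passed the threshold (limma adjusted p = 0.495 and 0.271), and the difference between the arms was not tested, because the *fbl-2* arm chose this gene.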

How the results depend on the processing

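With 3 libraries a group, the number of calls changed most without the mean trend of limma, which pools the spread of genes of like abundance. Without it the solute carriers called in the *fbl-1* arm's mRNA numbered 0 in place of 3, and among all genes there were 49 calls in place of 654 for *fbl-1* mRNA, 0 in place of 109 for *fbl-1* footprints, 2 in place of 47 for *fbl-2* mRNA and 2 in place of 394 for *fbl-2* footprints. With a replicate block for mRNA, 1 solute carrier (*SLC47A2* SMED30010999) was called in the *fbl-1* arm, and 413 genes in the *fbl-1* and 13 in the *fbl-2* arm. Deviations of same-numbered mRNA libraries correlated at 0.05, −0.14 and −0.09 in the *fbl-1* arm and at −0.15, −0.39 and −0.30 in the *fbl-2* arm. Those of different numbers ran from −0.16 to 0.24 and from −0.07 to 0.32. Deviations from the mean of 3 libraries sum to 0, which ties these correlations together. Whether the numbers pair the samples thus cannot be told from them. Replicate blocks chosen after seeing the data, from the numbers in the footprint columns' names, gave 25 genes for *fbl-1* and 420 for *fbl-2* footprints, and for TE, with mRNA and footprints of 1 number paired as 1 worm sample, 0 genes in each arm, with 0 solute carriers in all 4. Same-numbered footprint libraries of knockdown and control correlated between −0.12 and 0.17 in their deviations, and same-numbered mRNA and footprint libraries between −0.17 and 0.12. Leaving out 1 library gave 0 to 3 solute carriers and 182 to 838 genes for *fbl-1* mRNA, 0 to 1 solute carriers and 0 to 172 genes for *fbl-1* footprints, 13 to 91 genes for *fbl-2* mRNA, 187 to 559 for *fbl-2* footprints and 0 to 10 for *fbl-2* TE. The 1 solute carrier was *SLC4A1*, whose footprints passed without 1 *fbl-1* KD library (limma adjusted p = 0.0467). *SLC49A3* also missed the threshold with no filter (0.0872) and with median-of-ratios factors applied again (0.0505). Of the values of named genes under the alternatives 234 kept their side of the threshold, 17 lost it and 1 gained it, and none changed direction. All 17 losses were of the 3 solute carriers called in the *fbl-1* arm's mRNA, since the other named genes had not passed in the main fit. The cause of these changes was not tested. The small values of *SLC20A1* and *SLC16A4* limit what can be called for them.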
